A study of Mus musculus with 6 samples.

Results

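The tumour suppressor p53 (Trp53 in the mouse) and 30 of its direct target genes and close regulators were followed in MC3T3-E1 cells exposed to NU7441, against the same cells given the solvent. Members were the rows of the deposited gene table whose symbol is one of 31 listed names, and all 31 were found among the table's 23358 gene rows. MC3T3-E1 is a single mouse cell line, described in the labels as pre-osteoblasts from calvaria on a C57BL/6 background. NU7441 inhibits the DNA-dependent protein kinase (DNA-PK), a kinase of DNA double-strand break repair. The NU7441 group had 1 μM NU7441 for 16 h, and the DMSO group had DMSO for 16 h. Both groups had been grown to confluency in αMEM with serum, and each has 3 sequenced samples. The series' design text states that the triplicates of several experiments were combined for RNA-seq, so the p-values measure only the spread between these samples.

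p53 is a transcription factor that cells hold at a low protein level. Mdm2 marks it for degradation and Mdm4 blocks its activity. Kinases that respond to DNA damage release it from both, and it then raises genes that stop the cell cycle, start apoptosis, repair DNA or shut p53 down again. Most of this control acts on the protein, so the level of Trp53 mRNA does not measure p53 activity. In osteoblasts p53 is known as a brake on proliferation and on differentiation.

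p53 binds a 20-base element made of 2 copies of a 10-base consensus, each built around a core such as CATG, CAAG or CTTG. The 10-base consensus was searched on both strands in RefSeq promoter windows (build GRCm38.p6, 250 bases before to 50 after each start site). Windows existed for 23 of the 31 members, 31 windows in all, and for 9 of the 13 members that passed the test below. The consensus occurred in 10 of these 31 windows (9 genes), where 8.36% of all 32851 RefSeq windows hold it (2582 of 27025 genes). Aen has 2 overlapping windows that hold the same match, so the windows are not independent. The members were chosen as p53 targets and regulators, so their share is no independent evidence. A match is a description of the letters and not a measured binding site. The first line below is from Cdkn1a, the best known p53 target, and lies just before the upstream of its 2 listed start sites. There 2 CATG cores stand 6 bases apart (CATGNNNNNNCATG, which reads the same on both strands and is present in 0.712% of all windows). The other lines show the 10-base consensus in 4 genes that were lower in NU7441 (Aen, Trp53, Bax and Ccng1), in 2 that were higher (Sesn1 and Polk) and in the feedback gene Mdm2. Capitals mark the match, and each line runs 5′ to 3′ on the gene's strand.
Cdkn1a, chr17:29090923-29090952, plus strand: ttcaggaaCATGTCTTGACATGttcagccc
Aen, chr7:78895927-78895956, plus strand: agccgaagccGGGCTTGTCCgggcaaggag
Trp53, chr11:69580274-69580303, plus strand: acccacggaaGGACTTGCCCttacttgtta
Bax, chr7:45467050-45467139, minus strand: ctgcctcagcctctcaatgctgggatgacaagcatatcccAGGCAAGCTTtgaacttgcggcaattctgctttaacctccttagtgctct
Ccng1, chr11:40755422-40755511, minus strand: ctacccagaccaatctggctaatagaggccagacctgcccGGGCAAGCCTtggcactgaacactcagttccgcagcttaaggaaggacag
Sesn1, chr10:41887226-41887315, plus strand: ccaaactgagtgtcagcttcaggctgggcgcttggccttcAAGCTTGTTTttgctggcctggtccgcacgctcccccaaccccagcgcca
Polk, chr13:96519369-96519437, minus strand: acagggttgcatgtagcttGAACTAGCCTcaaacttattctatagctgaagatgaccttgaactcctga
Mdm2, chr10:117710895-117710984, minus strand: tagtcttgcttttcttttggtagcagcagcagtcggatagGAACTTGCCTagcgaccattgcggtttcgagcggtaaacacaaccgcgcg

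Matches were found in members of both directions. They were present in windows of 4 of the 6 lower members that had a window, in 2 of the 3 higher ones and in 3 of the 14 that were not called, groups too small and too preselected for a test. The matches in Sesn1 and Polk lie before an internal start site of the gene. The match in Aen begins 11 bases into the transcript of its first start site.

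The 6 libraries held 47312968 to 71292628 gene counts, with both ends of this range in the DMSO group. Osteoblast markers were expressed: the summed level of 10 osteoblast markers was 48538 to 50017 counts per 1000000 counts (CPM) in NU7441 samples and 47059 to 49503 CPM in DMSO samples. Most of that sum is the collagen genes Col1a1 and Col1a2, and single markers went both ways, with 3 higher (Spp1, Sparc and Col1a2) and 2 lower (Ibsp and Alpl) in NU7441. Bglap, the osteocalcin gene of mature osteoblasts, was nearly absent, at a mean of 0.150 CPM in NU7441 and 0.124 CPM in DMSO. The marker lists of macrophages, endothelium, epithelium, fat and muscle summed to at most 2.24 CPM in NU7441 samples and 2.76 CPM in DMSO samples each. In these lists Adgre1, Ptprc, Kdr, Epcam, Krt8, Krt18 and Myod1 had no count. Cd68, Csf1r, Pecam1, Cdh1, Fabp4 and Des had enough counts to test, at low levels, and none of them was called. The 5 chondrocyte markers, with Acan at 0, summed to 87.4 to 91.5 CPM in NU7441 samples and 80.2 to 82.2 CPM in DMSO samples. Most of that sum is the single gene Sox9, at a mean of 79.3 CPM in NU7441 and 72.2 CPM in DMSO. Sox9 and Col2a1 were the 2 that were higher. The part of these markers in the results below was not tested. With total RNA from whole cultures, fewer cells of a kind and less RNA per cell cannot be told apart.

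The p53 module changed in both directions and by small amounts. Of the 29 members with enough counts to test, 6 were higher and 7 were lower in NU7441 at an adjusted p of 0.05 (edgeR quasi-likelihood test, adjusted over all 13784 genes tested). Over all genes 14.1% were higher and 16.6% lower, 30.7% in either direction, which is the background against which the 13 of 29 members are to be read. The changes of members lay between -0.37 and 0.26 on the log2 scale with a median of -0.042, where the median of all genes tested was 0.0052. No member reached a change of 1.5-fold, which 776 of all genes tested did. In 16 members the CPM values of the groups did not overlap, against 42.8% of all genes tested. With upper-quartile scaling 56.5% of all calls were higher, against 45.9% with the scaling used here, and the members called were then 7 higher and 6 lower, with Ephx1 called as higher and Phlda3 not called.

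**Figure D1:**
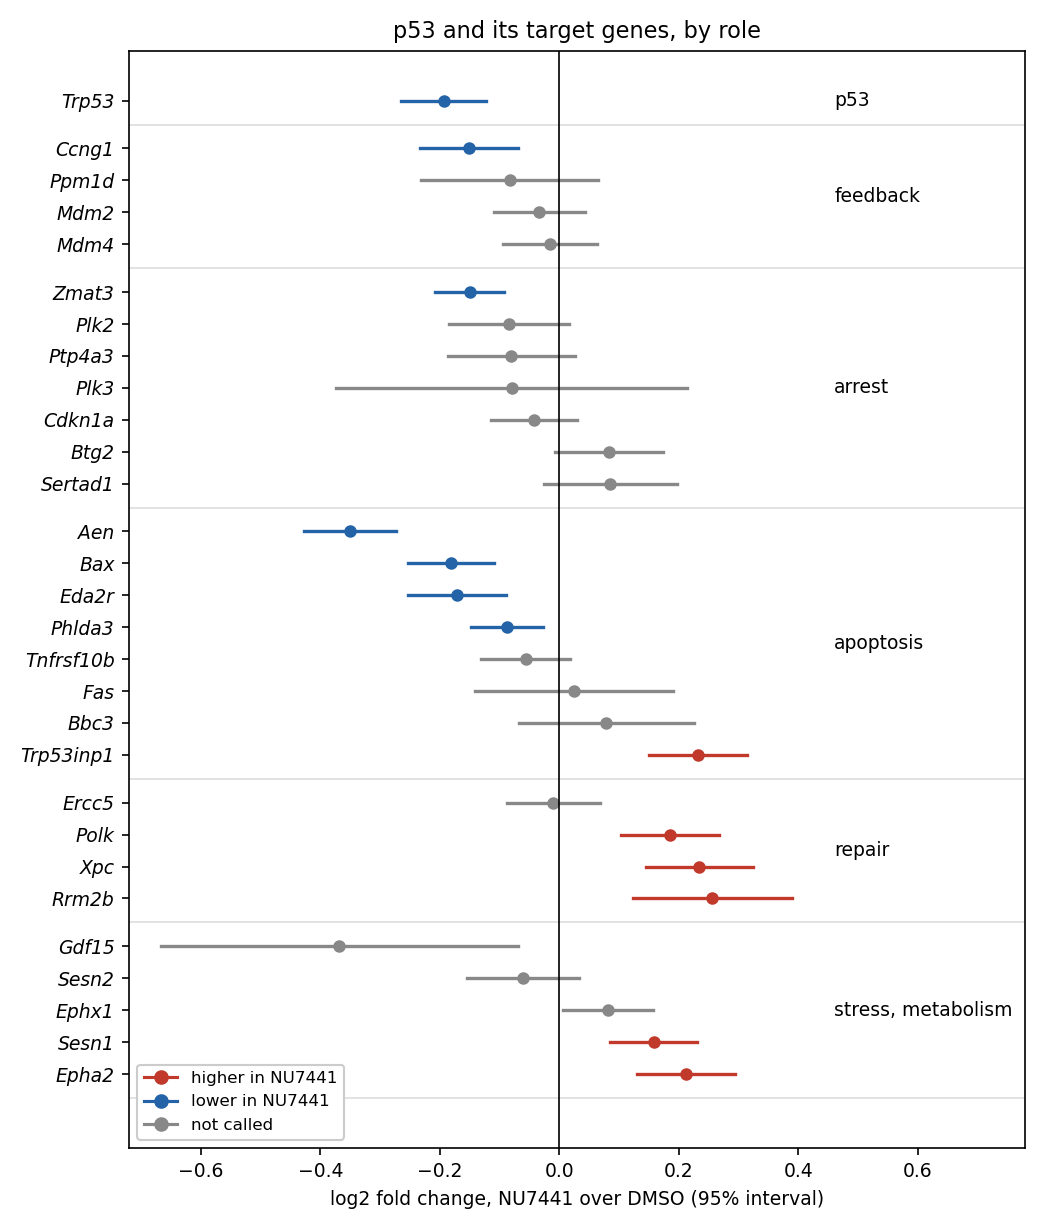
Log2 fold change of NU7441 over DMSO for the 29 tested members, grouped by role, with points at the estimate and bars for the 95% interval of the edgeR fit (3 samples a group). Colour gives the call at an adjusted p of 0.05: 3 of the 4 repair genes are called higher, and 4 of the 8 tested apoptosis genes are called lower. Over all genes tested 14.1% are called higher and 16.6% lower.

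Levels per length covered about 2 orders of magnitude. In the authors' RPKM values (reads scaled to gene length and to library total) the highest member in both groups was Ephx1, at 109 ± 6.45 RPKM in NU7441 and 105 ± 2.63 RPKM in DMSO (SD, n = 3 each). Ccng1, Cdkn1a and Phlda3 followed between 77.4 and 81.9 RPKM in NU7441 and between 83.9 and 88.4 RPKM in DMSO. The ranges of Ccng1 and Cdkn1a overlapped among DMSO samples, as did those of Cdkn1a and Phlda3, so the order of these 3 is not resolved. Trp53 itself stood at 28.7 ± 0.221 RPKM in NU7441 and 33.5 ± 1.09 RPKM in DMSO. It ranked 6 in DMSO, whereas in NU7441 its range overlapped those of Mdm4 and Trp53inp1, so its place there is not resolved. The lowest detected members were Gdf15, Rrm2b and Plk3, between 1.08 and 2.32 RPKM in NU7441 and between 1.18 and 2.15 RPKM in DMSO. Between neighbours in the DMSO order, ranges overlapped in 11 of 30 pairs, 1 of which is the pair at 0.

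**Figure D2:**
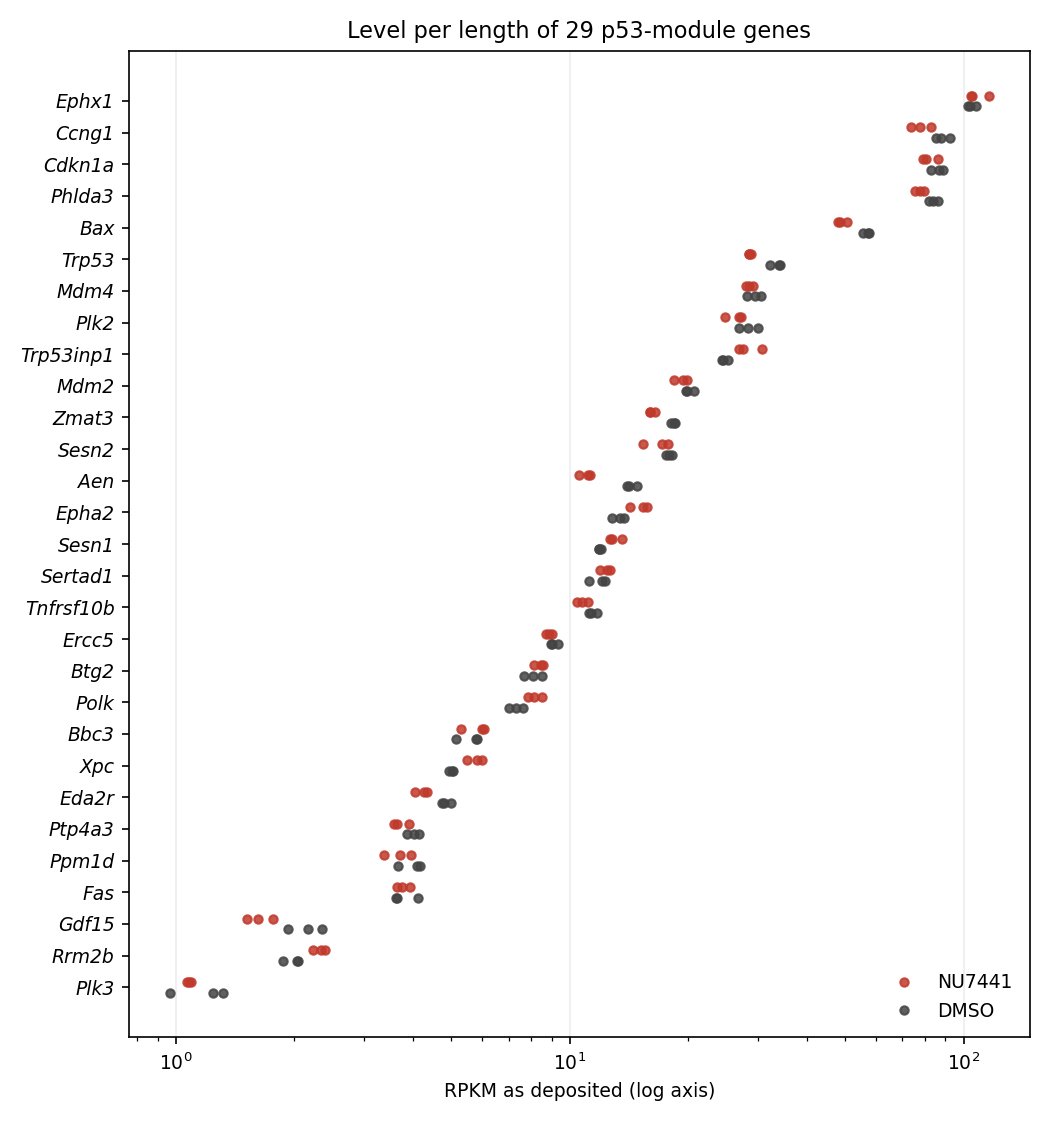
Deposited RPKM (log axis) of the 29 detected members in each of 3 NU7441 samples (red, upper row of each gene) and 3 DMSO samples (grey, lower row), ordered by the DMSO mean. Both groups keep nearly the same order, from Ephx1 at 109 and 105 RPKM down to Plk3 at 1.08 and 1.18 RPKM.

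Pmaip1, which encodes the BH3-only death protein Noxa, and Perp, a membrane protein of desmosomes and apoptosis, had 0 counts in all 6 libraries. All deposited counts are even, as if each read pair had added 2, so a count of 0 was taken to allow up to 3 read pairs or 6 counts. That is 0.126 CPM in the shallowest library and covers counting error only. These were the 2 members that did not pass the filter on low counts, and they give no comparison.

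Trp53 mRNA was lower in NU7441. Trp53 (mm10 chromosome 11, 69580359 to 69591873) had 71.7, 72.6 and 72.6 CPM in NU7441 samples, against 84.1, 80.2 and 83.8 CPM in DMSO samples. The groups did not overlap, and every NU7441 sample lay below the lowest DMSO sample. The log2 fold change was -0.19 ± 0.033 (SE, adjusted p = 0.00045, edgeR), a level that fell by 12.6% (95% interval -16.8% to -8.12%). GENCODE M21 lists a processed pseudogene of Trp53 on chromosome 17, so its counts carry some uncertainty.

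The feedback genes that hold p53 down showed 1 change among 4, beside 30.7% called over all genes tested. Mdm2, the ubiquitin ligase of p53 and itself a p53 target, had 79.6, 75.8 and 79.7 CPM in NU7441 samples and 82.5, 79.9 and 78.3 CPM in DMSO samples. These ranges overlap, and the log2 fold change was -0.033 ± 0.036 (adjusted p = 0.53, edgeR), with a 95% interval from -0.11 to 0.043. Mdm4, the relative of Mdm2 that masks the activation domain of p53, had 132, 139 and 133 CPM in NU7441 samples and 137, 143 and 129 CPM in DMSO samples. It too overlapped between the groups, with an interval of -0.093 to 0.063. It also has a processed pseudogene, on chromosome X. Ppm1d, which encodes the phosphatase Wip1 that removes activating phosphates from p53, was not called either (-0.083 ± 0.069, interval -0.23 to 0.065).

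Ccng1, which encodes cyclin G1, a target that recruits a phosphatase to Mdm2, was the feedback gene that fell. It had 383, 350 and 368 CPM in NU7441 samples, against 426, 396 and 400.4 CPM in DMSO samples. The groups did not overlap, although the highest NU7441 sample came close to the lowest DMSO sample. The log2 fold change was -0.15 ± 0.038 (adjusted p = 0.0072, edgeR), a fall by 9.94%.

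Among the 7 genes grouped here under growth arrest 1 changed, beside 30.7% called over all genes tested. The main p53 effector did not pass the test. Cdkn1a, which encodes the CDK inhibitor p21 and carries the paired CATG cores shown above, had 232, 218 and 222 CPM in NU7441 samples and 232, 224 and 236 CPM in DMSO samples. The ranges overlap. An unclassified gene model on the other strand, AC167363.2, covers 7.68% of its exon bases. Its log2 fold change was -0.042 ± 0.034 (adjusted p = 0.39, edgeR), and the 95% interval runs from -0.11 to 0.030.

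Zmat3, which encodes an RNA-binding zinc finger protein of the p53 response, was the arrest gene that fell. It had 170.5, 169.5 and 169.3 CPM in NU7441 samples, against 190, 187 and 188 CPM in DMSO samples. The samples of each group lay close together and the groups stood apart, at a log2 fold change of -0.15 ± 0.027 (adjusted p = 0.00064, edgeR). The other members of this role were Btg2, an antiproliferative factor (0.083 ± 0.042), the polo-like kinases Plk2 (-0.084 ± 0.047) and Plk3 (-0.080 ± 0.14), the phosphatase gene Ptp4a3 (-0.080 ± 0.049) and the transcriptional cofactor Sertad1 (0.085 ± 0.052). None of these 5 passed, with adjusted p between 0.16 and 0.71. Plk3, at 3.46 ± 0.0866 CPM in NU7441 and 3.69 ± 0.606 CPM in DMSO, shares 3.32% of its exon bases with Tctex1d4 on the other strand.

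The apoptosis genes held the largest fall that passed. Of 8 tested, 4 were lower, 1 was higher and 3 were not called, beside 16.6% lower and 14.1% higher over all genes tested. Aen, an exonuclease induced by p53 that cuts DNA during apoptosis (mm10 chromosome 7, 78895927 to 78908833), had 38.6, 37.3 and 39.1 CPM in NU7441 samples, against 47.6, 48.7 and 50.1 CPM in DMSO samples. The gap between the groups was several times the spread within either. The log2 fold change was -0.35 ± 0.036 (adjusted p = 3.6e-06, edgeR), a fall by 21.6% (95% interval -25.7% to -17.2%).

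Bax, the effector that opens the outer mitochondrial membrane (mm10 chromosome 7, 45461695 to 45466898), had 58.4, 57.4 and 56.7 CPM in NU7441 samples, against 65.5, 64.3 and 65.8 CPM in DMSO samples. It did not overlap between the groups and fell by 11.8% (log2 fold change -0.18 ± 0.033, adjusted p = 0.00077, edgeR). GENCODE M21 places 12.2% of its exon bases in a second gene model, Gm45808, on the same strand. Eda2r, a death receptor of the TNF receptor family for ectodysplasin A2, had 33.5, 32.05 and 33.8 CPM in NU7441 samples, against 38.5, 36.7 and 36.6 CPM in DMSO samples. Its values also stood apart (-0.17 ± 0.038, adjusted p = 0.0034, edgeR).

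Phlda3, which encodes a pleckstrin-homology protein that competes with AKT for membrane lipids, showed the smallest change that passed. It had 154, 150.3 and 155 CPM in NU7441 samples, against 162, 160.0 and 166 CPM in DMSO samples, without overlap. The log2 fold change was -0.088 ± 0.028 (adjusted p = 0.029, edgeR). That call was lost with any 1 of the 6 samples left out (adjusted p between 0.053 and 0.15) and with upper-quartile scaling (adjusted p = 0.11), and over all 15 alternatives the adjusted p lay between 0.0045 and 0.15.

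Trp53inp1, which encodes a nuclear partner of p53 that also takes part in autophagy, was the apoptosis gene that rose. It had 222, 199 and 203 CPM in NU7441 samples, against 181, 177 and 173 CPM in DMSO samples. NU7441 replicate 1 was the highest, and all NU7441 samples lay above all DMSO samples. The log2 fold change was 0.23 ± 0.038 (adjusted p = 0.00031, edgeR), a rise of 17.5%.

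The remaining death genes were not called. Bbc3, which encodes the BH3-only protein Puma, had 15.9, 16.1 and 14.2 CPM in NU7441 samples and 13.5, 15.3 and 15.05 CPM in DMSO samples. These overlap, at a log2 fold change of 0.078 ± 0.068 and an interval of -0.068 to 0.22. The death receptor genes Fas and Tnfrsf10b had log2 fold changes of 0.024 ± 0.078 and -0.057 ± 0.035. The CPM of Tnfrsf10b did not overlap between the groups, at 45.1 to 46.9 in NU7441 and 47.4 to 49.0 in DMSO, yet the test did not call it (adjusted p = 0.25, edgeR).

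**Figure D3:**
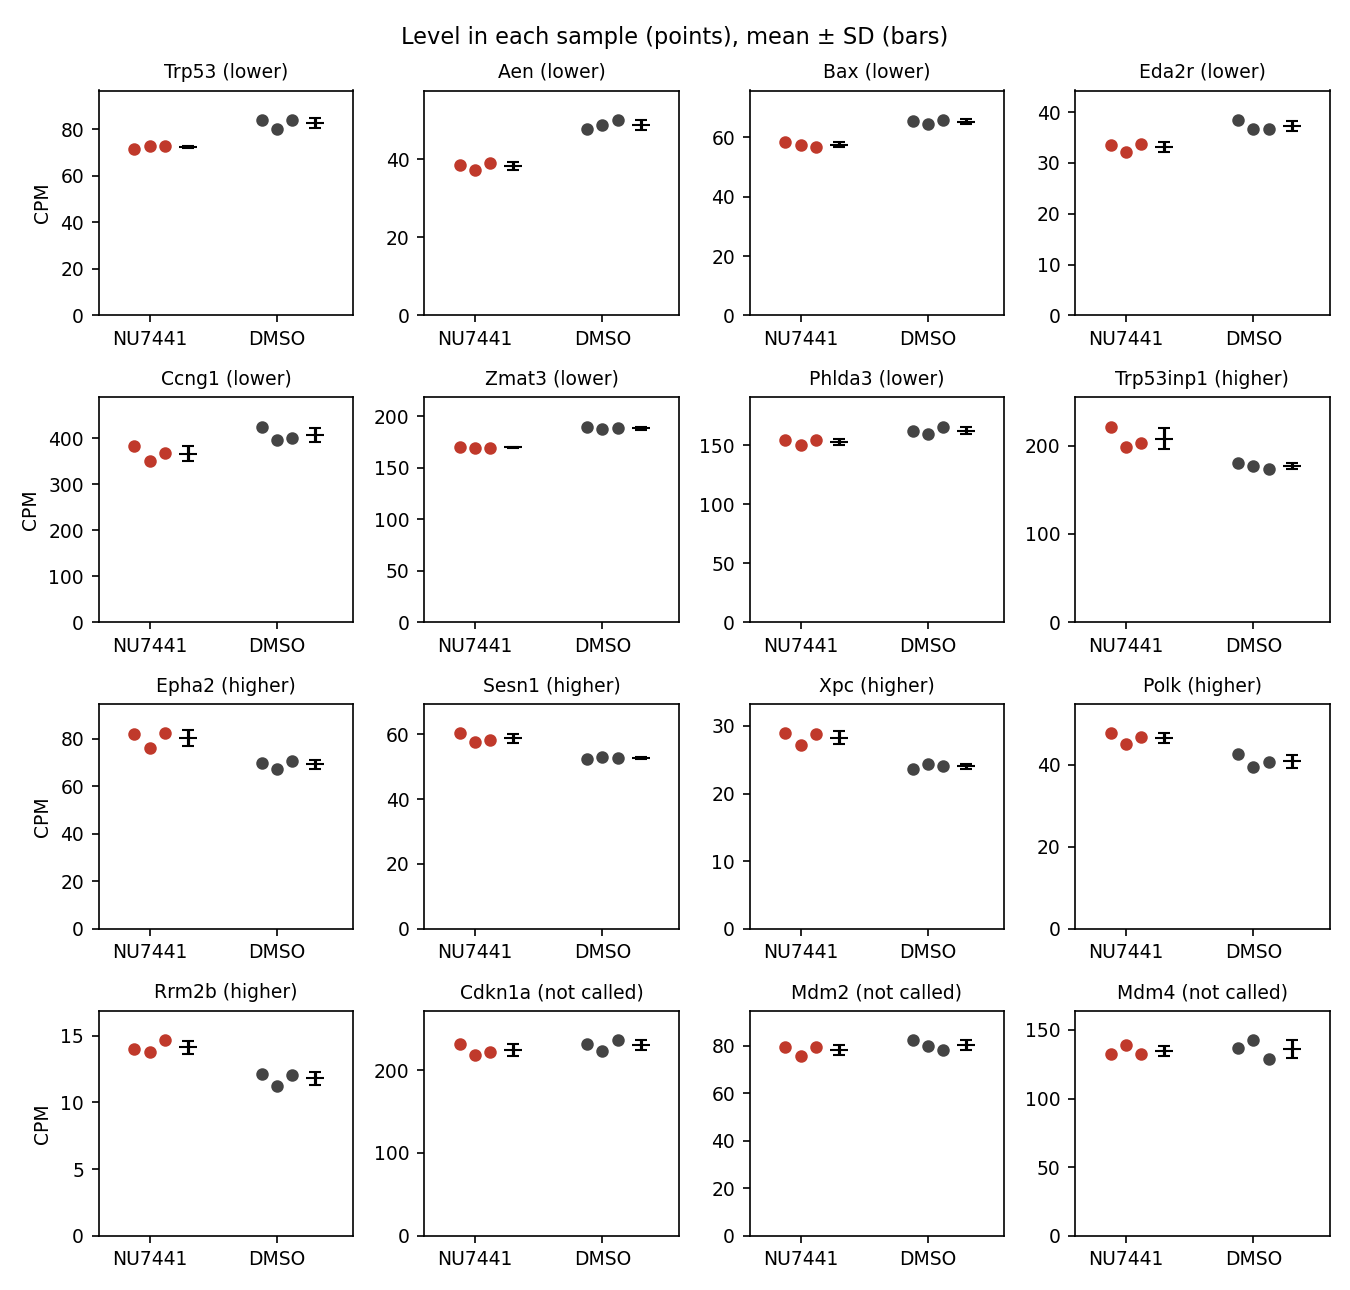
CPM of the 13 called members and of Cdkn1a, Mdm2 and Mdm4 in each sample (points, replicates 1 to 3 from left to right) with mean ± SD beside them, NU7441 in red and DMSO in grey, on axes that start at 0. The groups stand apart in the 13 called genes, where the fitted change is at most 21.6% of the level, and overlap in Cdkn1a, Mdm2 and Mdm4.

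Of the 4 repair genes 3 rose, beside 14.1% of all genes tested. Xpc, which recognises DNA lesions for nucleotide excision repair (mm10 chromosome 6, 91489307 to 91515888), had 28.9, 27.2 and 28.8 CPM in NU7441 samples, against 23.7, 24.4 and 24.0 CPM in DMSO samples. The groups did not overlap, and the rise was 17.6% (log2 fold change 0.23 ± 0.042, adjusted p = 0.00056, edgeR). Polk, the translesion DNA polymerase kappa, had 47.7, 45.1 and 46.7 CPM in NU7441 samples, against 42.6, 39.5 and 40.6 CPM in DMSO samples. It rose as well (0.19 ± 0.039, adjusted p = 0.0020, edgeR). Ercc5, the XPG nuclease that cuts beside the lesion in the same repair pathway as Xpc, did not pass the test (adjusted p = 0.86, edgeR). It had 47.05, 49.2 and 47.4 CPM in NU7441 samples and 47.4, 49.8 and 47.6 CPM in DMSO samples, and its interval ran from -0.088 to 0.067. The roles hold few genes each and were assigned with earlier results of these data known. Whether the roles differ from each other in direction was not tested.

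Rrm2b and Rrm2 moved in opposite directions. Rrm2b encodes p53R2, the small subunit of ribonucleotide reductase that p53 induces and that supplies deoxynucleotides outside S phase. Rrm2b had 13.98, 13.7 and 14.7 CPM in NU7441 samples, against 12.2, 11.2 and 12.04 CPM in DMSO samples, without overlap. The log2 fold change was 0.26 ± 0.062 (adjusted p = 0.0056, edgeR), the largest rise among the members. GENCODE M21 has an antisense transcript, Gm49085, over 8.04% of its exon bases. Rrm2, the small subunit of dividing cells, had a log2 fold change of -1.22 ± 0.038 (adjusted p = 8.0e-11, edgeR). Per length, Rrm2 exceeded Rrm2b by a ratio of 4.71, 4.78 and 4.23 within the NU7441 libraries, against 12.6, 13.4 and 12.1 within the DMSO libraries. The mean ratio of RPKM was 4.57 ± 0.302 in NU7441 and 12.7 ± 0.635 in DMSO (SD, n = 3 each; exact permutation test, two-sided p = 0.1, the smallest that 3 against 3 samples allow). Both genes already stood apart between the groups in opposite directions, which fixed this p-value in advance. The ratio restates the 2 changes and adds no support to them.

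Of the 5 genes of stress and metabolism 2 rose, beside 14.1% of all genes tested. Epha2, a receptor tyrosine kinase for ephrin-A ligands (mm10 chromosome 4, 141301221 to 141329384), had 82.1, 76.4 and 82.4 CPM in NU7441 samples, against 69.8, 67.3 and 70.8 CPM in DMSO samples. The groups did not overlap (log2 fold change 0.21 ± 0.038, adjusted p = 0.00068, edgeR). Sesn1, a sestrin that restrains the growth kinase mTORC1, had 60.2, 57.6 and 58.3 CPM in NU7441 samples, against 52.4, 52.9 and 52.6 CPM in DMSO samples. It rose by 11.6% (0.16 ± 0.034, adjusted p = 0.0026, edgeR). Its relative Sesn2, which is also a target of the stress factor ATF4, had 62.7, 55.7 and 61.9 CPM in NU7441 samples and 61.4, 63.2 and 63.4 CPM in DMSO samples, which overlap (-0.061 ± 0.044, adjusted p = 0.33, edgeR).

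Gdf15 and Ephx1 lay near the threshold. Gdf15, a secreted stress cytokine, had 122, 122 and 136 counts in NU7441 samples and 172, 132 and 240 counts in DMSO samples, which is 2.33, 2.24 and 2.61 CPM and 3.09, 2.78 and 3.34 CPM. The CPM values did not overlap, and the estimate of -0.37 ± 0.14 is the largest of all members in size, but its interval is wide (-0.67 to -0.070) and the adjusted p was 0.060 (edgeR). In 6 of 15 alternatives it passed, and the adjusted p lay between 0.045 and 0.21. Ephx1, the microsomal epoxide hydrolase of drug metabolism, had 256, 237 and 238 CPM in NU7441 samples and 237, 227 and 227 CPM in DMSO samples. Its log2 fold change was 0.081 ± 0.035 (adjusted p = 0.10, edgeR), and it passed in 3 of 15 alternatives (adjusted p between 0.011 and 0.40).

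For the 16 members that were not called, the interval bounds what these samples allow under the scaling used here. Like the p-values, it covers only the spread between these samples. Other scalings shifted the estimates of all genes by a median of -0.0195 (library size only) to 0.0257 (upper-quartile scaling) on the log2 scale. In 14 of them the 95% interval lay within a change of 1.2-fold in either direction. The exceptions were Gdf15 and Plk3, the least expressed of the tested members by CPM. A missed threshold does not show that a gene was unchanged, but for Cdkn1a, Mdm2, Mdm4 and Ercc5 the lower ends of the interval were -0.11, -0.11, -0.093 and -0.088, and the upper ends 0.030, 0.043, 0.063 and 0.067, on the log2 scale and in this order.

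A second list held 41 other p53 targets. Of the 36 with enough counts to test, 4 were higher and 9 lower, and the median was -0.033 on the log2 scale. That is 36.1% called, beside 30.7% of all genes tested. The 3 with the lowest adjusted p were Pcna, the sliding clamp of DNA replication (-0.74 ± 0.031), Gtse1, a G2 regulator of p53 (-1.31 ± 0.068), and Ckap2, a spindle protein (-1.29 ± 0.073), which are also genes of dividing cells. The next was Lpin1, a phosphatidate phosphatase (0.28 ± 0.039). With upper-quartile scaling 7 of these targets were higher.

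Of 29 tested upstream regulators of p53, 8 were lower and 3 were higher, which is 37.9% called beside 30.7% of all genes tested. The 3 that rose, named after their values were seen, were the acetyltransferase gene Ep300 (0.12 ± 0.027), the ubiquitin ligase gene Rfwd2 (0.12 ± 0.034) and Trp53bp1 (0.089 ± 0.031), which encodes a p53-binding protein of break repair. The checkpoint kinase genes Chek1 (-0.77 ± 0.093) and Chek2 (-0.52 ± 0.064), which act on p53 after damage, fell. Atm, the apical kinase of the break response, fell to 46.0 ± 3.08 CPM in NU7441, against 59.5 ± 1.91 CPM in DMSO (SD, n = 3 each; log2 fold change -0.37 ± 0.046, adjusted p = 2.4e-05, edgeR). Setd8, a histone methyltransferase that also methylates p53, fell by 0.30 on the log2 scale. Prkdc, which encodes the kinase that NU7441 inhibits, had a log2 fold change of -0.14 ± 0.039 (adjusted p = 0.016, edgeR), and leaving out DMSO replicate 2 (adjusted p = 0.061) or NU7441 replicate 1 (adjusted p = 0.055) ended that call. The number of regulators that were higher was 1 without DMSO replicate 2, without NU7441 replicate 1 and with no scaling beyond library size.

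Genes that p53 represses indirectly, through p21 and the DREAM complex, were lower as a body while Cdkn1a was not called. All 33 tested genes of that list were lower, by log2 fold changes between -1.66 and -0.29 (median -1.25), beside 16.6% of all genes tested. An example is Top2a, a topoisomerase of dividing cells (-1.41 ± 0.054). The list was drawn up with the fall of cell-cycle genes in these data already known, so its direction is no independent evidence. The part of the fall of dividing-cell genes in the values of the p53 module, the other p53 targets and the regulators, Chek1 and Chek2 included, was not tested.

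**Figure D4:**
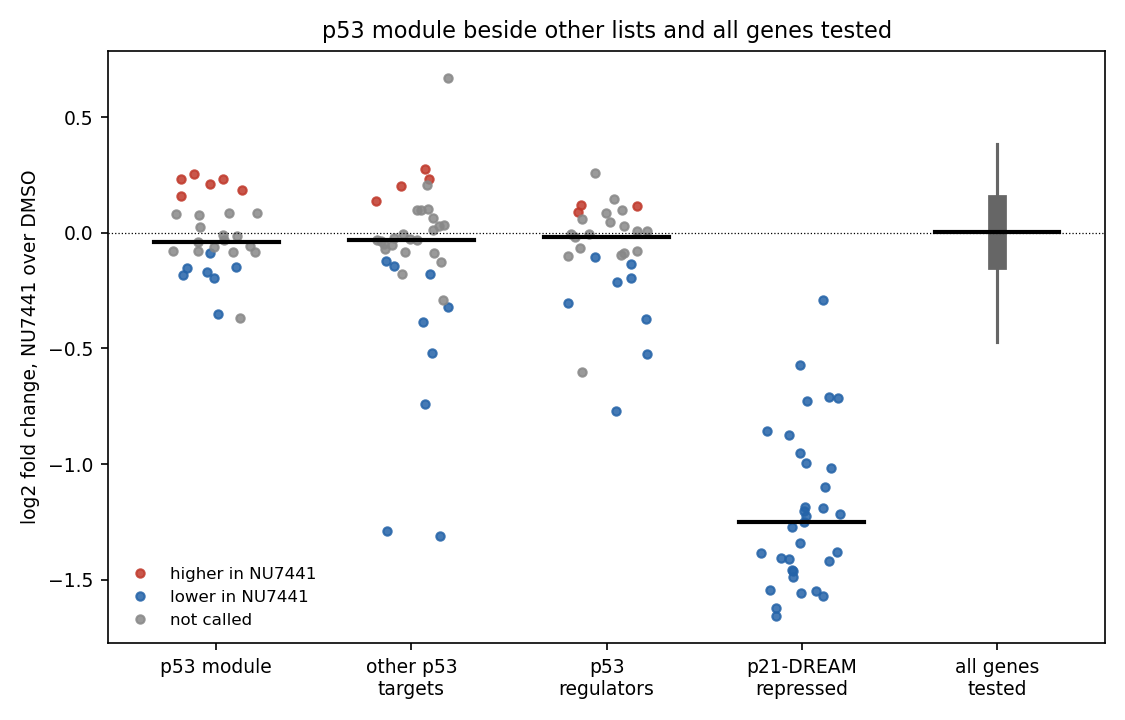
Log2 fold change of NU7441 over DMSO for each tested gene of 4 lists (points, coloured by call; black bars are medians) and for all genes tested (black bar, median; thick bar, middle 50%; thin line, 5th to 95th percentile). The p53 module, the other p53 targets and the p53 regulators have medians of -0.042, -0.033 and -0.018, and the p21-DREAM list has a median of -1.25.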

How the data were processed

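RNA of MC3T3-E1 cells was sequenced from 3 NU7441 and 3 DMSO samples. Per the file headers, the deposited table gives counts and RPKM for 23358 gene rows, beside a length. Tools listed in the submitters' processing notes are bcl2fastq, TopHat2 (2.0.6) and HTSeq, with the build mm10 and no settings. The strandedness of counting was not given in the sources used here. The deposited counts hold 0 odd values, as if each pair of reads had added 2. The deposited RPKM values were used only for levels per length and the Rrm2 to Rrm2b ratio. 0 columns of sample values were left unmapped.

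The counts were processed in R 4.3.3 with edgeR 4.0.16: filterByExpr (minimum count 10, minimum total 15), TMM factors, then glmQLFit and glmQLFTest with no term but group. Tests were two-sided and Benjamini-Hochberg adjustment covered every gene tested. The SE is the size of the log2 fold change divided by the square root of F. CPM uses the scaled library sizes. No pair of samples within a group agreed within sampling noise (chi-square per degree of freedom between 3.15 and 8.33, on counts divided by 2), so each was counted once. The procedure was tested on simulated counts of well-expressed genes, with planted changes larger than those of most members. Recovery of changes as small as most of those reported here was not tested. Alternatives covered scaling, filters, DESeq2 1.42.0, a robust fit, counts divided by 2, a replicate block and leaving out each sample.

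The members, their roles and the lists were chosen with earlier results of these data known. All members were named. Of the other target and regulator lists up to 4 genes with the lowest adjusted p were named, and of the p21-DREAM list up to 3, of which 1 is not reported here. Prkdc was named in any case. Promoter windows are those of RefSeq, and exon overlaps are from GENCODE M21. Where a shown stretch touches an annotated exon it was limited to 30 bases.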

Additional observations from a re-analysis of the deposited data

How the results depend on the processing

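The fit was repeated under 15 alternatives, 9 of them other scalings, filters, tests or terms and 6 with 1 sample left out. The p53 module had 6 or 7 members higher and 6 to 9 lower in all of them, and 12 of the 13 called members passed in every one; the exception was Phlda3. With each sample left out in turn the module had 6 members higher and 6 to 7 lower. Among the other p53 targets 7 were higher with upper-quartile scaling, against 4. Among the regulators 1 was higher with library size only, against 3, and the number lay between 1 and 3 with each sample left out. Estimates near 0 changed sign without passing the test: Mdm4 stood at 0.011 and Ercc5 at 0.015 with upper-quartile scaling. With each sample left out in turn, Mdm4 lay between -0.053 and 0.019, Ercc5 between -0.029 and 0.012, Plk3 between -0.22 and 0.013 and Fas between -0.012 and 0.086. The cause was not tested. The sources used here do not say whether the sample numbers mark pairs, and the main fit did not take them as pairs. Same-numbered samples of the groups correlated at 0.134, 0.088 and 0.0471 in their deviations from the group means. These values are low, but each sample correlated best with its own number, so the main fit may leave out a pairing. With the replicate block 2417 genes were higher and 2703 lower, and 16 members passed, 13 of them shared with the fit without it; Plk2 passed at an adjusted p of 0.019. Gdf15 and Plk3 had at most 240 counts a library, the fewest of the tested members.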
